A study of Mus musculus with 8 samples.

Results

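The autophagy conjugation machinery was taken as 10 genes fixed by name, which encode the ubiquitin-like modifier Atg12, its acceptor and scaffold, and the enzymes that attach and remove the ubiquitin-like proteins of autophagy: Atg7, Atg3, Atg10, Atg12, Atg5, Atg16l1, Atg4a, Atg4b, Atg4c and Atg4d. All 10 were found among the 55276 gene symbols of the deposited count table, and all 10 passed the filter on low counts that left 17344 genes to test. They were compared between sorted cells of the esophageal epithelium with much and with little Cyto-ID, which stains autophagic vesicles.

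Cells came from C57BL6 mice 14 to 15 weeks old with no genetic change or drug named, and those that were alive (DAPI negative) and positive for integrin beta-1 were sorted into Cyto-ID Low and Cyto-ID High. RNA was sequenced in bulk from 8 libraries, 4 per fraction, in which 2 female and 2 male animals (Female1, Female2, Male1, Male2) each gave a library of each fraction. The series' title concerns autophagy in epithelial homeostasis and basal cells of limited proliferation. Libraries held 26285150 to 29301054 counts, of which 7381 to 9429 fell on the 10 genes. Levels are given as CPM, counts relative to a library size that was adjusted for composition by TMM (trimmed mean of M), unless another scale is named.

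Autophagy encloses cytoplasm in a growing double membrane, and its conjugation genes put proteins of the Atg8 family (LC3 and GABARAP) onto the lipid of that membrane. Atg7 activates both Atg12 and Atg8, Atg10 passes Atg12 to Atg5, and Atg3 passes Atg8 to phosphatidylethanolamine. The Atg12-Atg5 conjugate binds Atg16l1, which places the reaction on the membrane, while the Atg4 proteases trim new Atg8 proteins and cut them from lipid again.

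The labels call the sorted cells basal, and marker lists of both epithelial layers were measured beside the members. The 8 basal keratinocyte markers (Krt5, Krt14, Krt15, Itgb1, Itga6, Itgb4, Col17a1, Trp63) summed to 20890 to 24771 CPM in the Low and 2720 to 4454 CPM in the High libraries, and 8 of 8 fell. The 8 suprabasal markers (Krt4, Krt13, Krtdap, Sbsn, Ivl, Lor, Cnfn, Tgm3) summed to 8583 to 25491 CPM in Low and 142852 to 240234 CPM in High, and 8 of 8 rose. The High library of Male2 stood apart, with 22208 detected genes against 24820 to 28266 in the other 7 libraries. Its 6 fibroblast markers summed to 36.6 CPM, where the other libraries had 146 to 479 CPM, and its 6 leukocyte markers to 4.83 CPM, where the others had 23.0 to 72.2 CPM. Both libraries of Female2 carried gastric markers, at 17.2 CPM in Low and 108 CPM in High against at most 0.977 CPM elsewhere. The part that cell makeup had in the differences below was not tested, and in bulk RNA fewer cells of a type cannot be told apart from less RNA per cell.

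The stretches upstream of 4 genes that differed between the fractions are shown first: Atg4c, which fell, and Atg3, Atg4a and Atg4d, which rose. Atg4b also rose and Atg16l1 also fell, and no stretch of either is shown. RefSeq promoter windows of build GRCm38.p6, from 250 bases before to 50 after a start, were used for 8 of the 10 genes, not Atg12 or Atg16l1. Windows on the chromosome of Atg12 were left out for the members but kept in the shares of all windows given below. Each sequence is the longest upstream run that no annotated exon touches. Capitals mark matches on either strand to CACGTG (the E-box core in the element bound by the lysosomal regulator TFEB), CCAAT (NF-Y) or GGGCGG (Sp1 and KLF factors).
Atg3, plus strand, chr16:45158707-45158784: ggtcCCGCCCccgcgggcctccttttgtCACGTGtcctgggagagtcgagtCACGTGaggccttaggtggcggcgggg
Atg4a, plus strand, chrX:140956729-140956906: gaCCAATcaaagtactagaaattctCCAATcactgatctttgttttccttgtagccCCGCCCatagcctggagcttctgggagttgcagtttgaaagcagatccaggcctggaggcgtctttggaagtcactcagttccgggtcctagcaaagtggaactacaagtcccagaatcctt
Atg4d, plus strand, chr9:21265035-21265284: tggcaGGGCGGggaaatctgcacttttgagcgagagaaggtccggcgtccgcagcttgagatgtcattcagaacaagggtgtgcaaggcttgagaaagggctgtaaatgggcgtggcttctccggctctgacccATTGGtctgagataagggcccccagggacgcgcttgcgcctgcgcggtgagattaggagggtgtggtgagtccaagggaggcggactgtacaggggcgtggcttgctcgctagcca
Atg4c, plus strand, chr4:99193684-99193933: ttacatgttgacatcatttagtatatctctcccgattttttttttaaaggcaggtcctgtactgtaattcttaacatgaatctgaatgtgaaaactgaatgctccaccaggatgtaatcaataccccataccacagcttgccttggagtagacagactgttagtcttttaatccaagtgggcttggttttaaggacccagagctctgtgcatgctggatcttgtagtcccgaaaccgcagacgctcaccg

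CACGTG was present in the windows of 3 of 8 genes (Atg3, Atg5 and Atg7) and in 7.15% of all 32817 windows. The Atg7 window lies inside the annotated gene, at a start 27999 bases from the GENCODE start of Atg7, and the Atg4b window at a start 3405 bases from that of Atg4b. The other 6 windows start within 44 bases of theirs. In Atg3 it occurred at positions −94 and −71, counted from the start at 1 with −1 the base before it. GGGCGG was in 6 of 8 windows against 35.6% of all, and CCAAT in 3 of 8 against 37.4%. The Atg4c window held none of the 7 motifs searched. The motif of FOXO factors, TGTTTAC, was in 0 of 8 windows and in 3.65% of all. That of AP-1, TGANTCA, was in 0 of 8 and 7.81% of all. The antioxidant response element, TGACNNNGC, was in 0 of 8 and 12.4%, and the E2F motif, TTTCCCGC, in 0 of 8 and 1.07%. Matches to different motifs do not overlap in the 4 stretches. A match describes letters only.

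Across the 10 genes 4 rose in Cyto-ID High (Atg3, Atg4a, Atg4b, Atg4d), 2 fell (Atg16l1, Atg4c) and 4 did not pass (Atg7, Atg10, Atg12, Atg5), by edgeR's quasi-likelihood test with sex as a covariate and a Benjamini-Hochberg adjusted p under 0.05 over all genes. Of all genes tested 48.7% passed, 23.4% higher and 25.3% lower, so the share of members that passed was near that of all genes. The CPM of the fractions did not overlap for the same 6 members, against 48.6% of all genes. Over the 10 members the median on the log2 scale was 0.20, beside −0.09 over all genes tested. When libraries were scaled by total counts alone, the median of all genes moved by −0.55 and the call of 4 higher and 2 lower members became 0 higher and 5 lower, where 12.6% of all genes were higher and 49.1% lower (61.7% in all). Of the 18 alternatives run, Atg16l1 and Atg4c kept their direction and call in 18 and Atg3 and Atg4b in 17, all but total counts. That scaling lowers all genes together, so a fall held there and a rise lost there do not part the 2 kinds of call.

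**Figure D1:**
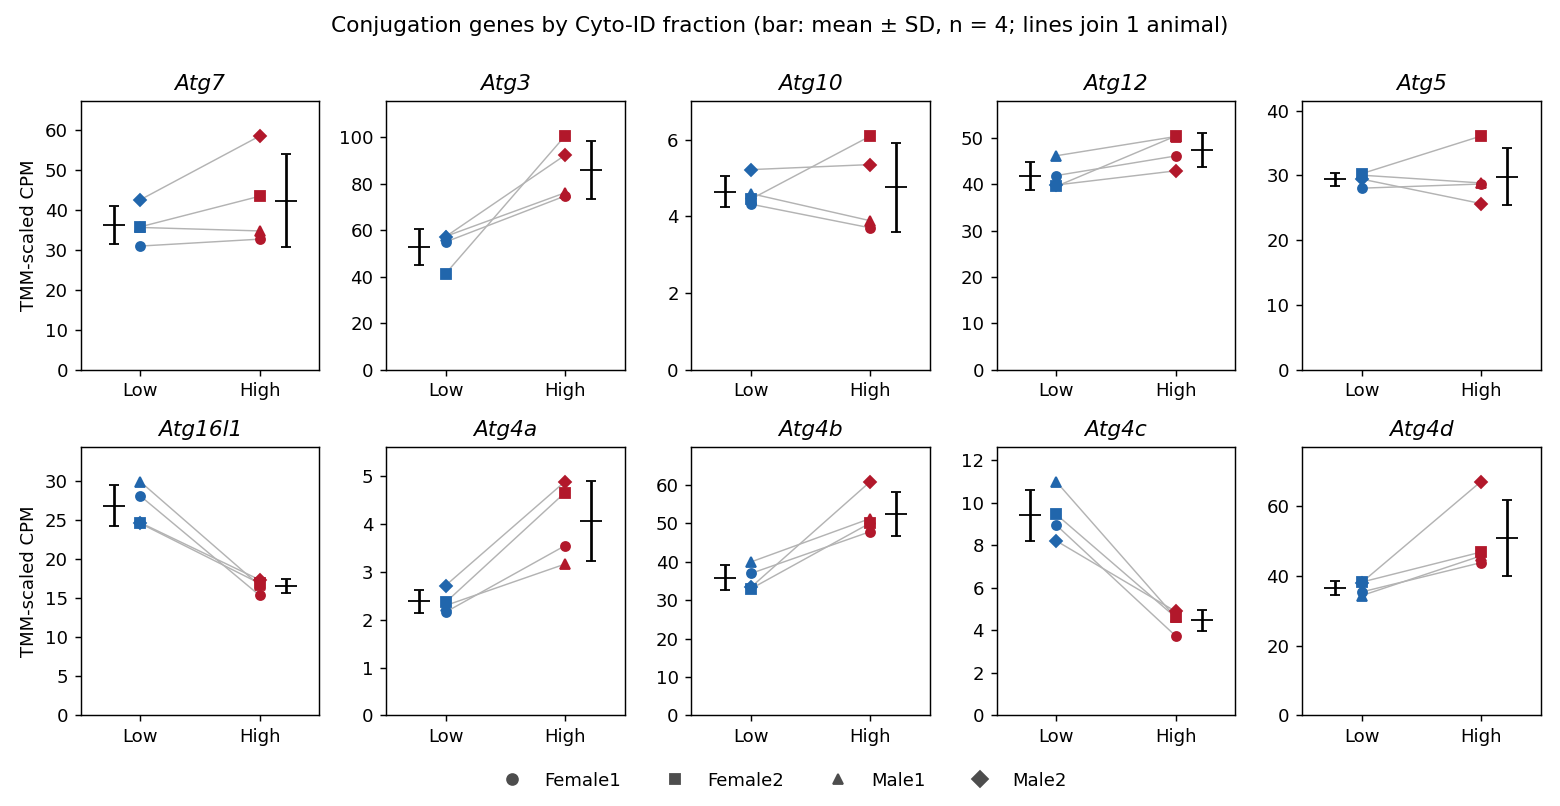
TMM-scaled CPM (y axis, from 0) of each conjugation gene in the Cyto-ID Low (blue) and High (red) libraries, with symbols for the 4 animals, grey lines joining the libraries of an animal and bars for the mean ± SD (n = 4). Atg16l1 and Atg4c were lower in High in 4 of 4 animals, and Atg3, Atg4a, Atg4b and Atg4d were higher in 4 of 4 with TMM scaling, a direction that total counts turned for Atg4b and Atg4d.

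Atg7 is the E1-like enzyme at the head of both branches (chr6:114643097-114860614, plus strand, GRCm38). It was at 31.0, 35.8, 35.6 and 42.6 CPM in the Low libraries of Female1, Female2, Male1 and Male2, and at 32.7, 43.5, 34.8 and 58.5 CPM in their High libraries. Male2 was highest in both fractions and the fractions overlapped. The log2 fold change was 0.22 (SE 0.18, 95% interval −0.19 to 0.63, edgeR adjusted p 0.358), higher in 3 of 4 animals, and −0.37 (adjusted p 0.0298) with scaling by total counts. With 1 library left out it ran from 0.048, without the High library of Male2, to 0.35, without that of Male1, and passed in none of these fits.

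The E2-like enzymes had unequal values. Atg3, the E2 of the Atg8 branch (chr16:45158785-45188538, plus strand), was at 54.9, 41.3, 57.3 and 57.2 CPM in Low (Female1, Female2, Male1, Male2) and at 74.7, 100.4, 76.1 and 92.2 CPM in High. Every High library lay above every Low library, and Female2 had both the lowest Low and the highest High value. Atg3 rose by 0.71 on the log2 scale (edgeR adjusted p 0.00498, SE 0.16), or 1.63-fold, in 4 of 4 animals, and by 0.13 (adjusted p 0.381) with total counts.

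Atg10, the E2 of the Atg12 branch (chr13:90935356-91223968, minus strand), rested on 96 to 173 counts per library. It was at 4.32, 4.45, 4.59 and 5.22 CPM in Low and at 3.70, 6.09, 3.89 and 5.35 CPM in High, in the same order of animals. The High values lay on both sides of the Low values. The log2 fold change was 0.03 (SE 0.22, 95% interval −0.46 to 0.52, edgeR adjusted p 0.921), and −0.55 (adjusted p 0.0313) with total counts.

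Atg12, the ubiquitin-like protein itself, was at 41.9, 39.5, 46.1 and 39.8 CPM in Low and at 46.1, 50.4, 50.3 and 42.9 CPM in High. It was higher in High in 4 of 4 animals but the fractions overlapped, with a log2 fold change of 0.18 (SE 0.12, 95% interval −0.10 to 0.46, edgeR adjusted p 0.265). With total counts the value was −0.37 (adjusted p 0.0525). Its acceptor Atg5 (chr10:44268358-44364291, plus strand) was at 28.0, 30.3, 30.0 and 29.4 CPM in Low and at 28.7, 36.1, 28.8 and 25.7 CPM in High. The Low libraries were close together, and the High libraries had both the highest and the lowest value. The log2 fold change of Atg5 was 0.01 (SE 0.13, 95% interval −0.29 to 0.31, edgeR adjusted p 0.952), and −0.55 (adjusted p 0.0101) with total counts.

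Atg16l1, the scaffold that completes the E3-like complex (chr1:87755870-87792428, plus strand), fell. It was at 28.1, 24.5, 29.9 and 24.6 CPM in Low and at 15.3, 16.9, 16.6 and 17.3 CPM in High. All High libraries lay below all Low libraries, within a narrow range of 337 to 436 counts. The log2 fold change was −0.70 (edgeR adjusted p 0.00157, SE 0.13), or 1.62-fold lower, in 4 of 4 animals, and over the alternatives it ran from −1.26 to −0.62 with an adjusted p of at most 0.00701.

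The 4 Atg4 proteases did not move in 1 direction. Atg4b (chr1:93751500-93790610, plus strand), known as the most active of them on LC3, was at 36.9, 32.9, 39.9 and 33.4 CPM in Low and at 47.8, 50.1, 51.2 and 60.8 CPM in High. High lay above Low in every library. Atg4b rose by 0.55 on the log2 scale (edgeR adjusted p 0.00548, SE 0.13), or 1.46-fold, in 4 of 4 animals, and was at −0.02 (adjusted p 0.890) with total counts.

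Atg4d (chr9:21265293-21277772, plus strand) was at 35.4, 38.2, 34.3 and 38.1 CPM in Low and at 43.8, 46.8, 45.7 and 67.0 CPM in High, where Male2 stood above the other High libraries. It rose by 0.47 (edgeR adjusted p 0.0297, SE 0.15), or 1.38-fold, in 4 of 4 animals, and was at −0.11 (adjusted p 0.427) with total counts. Without the High library of Male2 the log2 fold change was 0.32 (adjusted p 0.0762), without that of Female2 0.49 (adjusted p 0.0570) and without the Low library of Male1 0.39 (adjusted p 0.0736). Exons of Kri1 on the other strand cover 19.3% of the Atg4d exons, and whether strand was used in the counting is not given in the sources used here, so some of its reads are uncertain. Kri1 went the other way, from 14.4 ± 2.5 to 8.99 ± 0.66 CPM (SD, n = 4 each), which is a difference on the log2 scale of −0.68 (edgeR adjusted p 0.00702, SE 0.17).

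Atg4c (chr4:99193934-99259787, plus strand) fell the most of the 10 genes. It was at 8.94, 9.44, 10.98 and 8.20 CPM in Low and at 3.74, 4.61, 4.61 and 4.88 CPM in High, or 272 to 354 counts against 95 to 121. The highest High library was below the lowest Low library. The log2 fold change was −1.08 (edgeR adjusted p 0.000603, SE 0.17), or 2.11-fold lower, in 4 of 4 animals, and it ran from −1.65 to −0.99 over the alternatives with an adjusted p of at most 0.00294.

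Atg4a (chrX:140956907-141164270, plus strand) had few counts, 70 to 107 per library. It was at 2.16, 2.36, 2.30 and 2.71 CPM in Low and at 3.55, 4.65, 3.16 and 4.88 CPM in High, with every High library above every Low library. It rose by 0.77 (edgeR adjusted p 0.0195, SE 0.23), or 1.70-fold, in 4 of 4 animals, and was at 0.18 (adjusted p 0.476) with total counts. The call was lost without the Low library of Female1 (0.68, adjusted p 0.0502), the High library of Female2 (0.67, 0.0640), the Low library of Male1 (0.72, 0.0585) or the High library of Male2 (0.65, 0.0553).

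A single-exon copy of Atg4a, the retrogene Atg4a-ps (chr3:103643954-103646068, minus strand), is identical to the longest Atg4a transcript at 2100 of 2115 aligned bases (99.3%), so reads of the pair are uncertain. Atg4a-ps was at 2.62 ± 0.62 CPM in Low and 4.87 ± 0.89 CPM in High (SD, n = 4 each), as abundant as Atg4a, and rose by 0.89 (edgeR adjusted p 0.0148, SE 0.25). Summed before the fit, an alternative added after the data were seen, the pair went from 5.00 ± 0.72 to 8.94 ± 1.45 CPM. The sum rose by 0.83 (edgeR adjusted p 0.00531, SE 0.19), with an adjusted p of 0.00615 to 0.0200 when any 1 library was left out, and by 0.26 (adjusted p 0.267) with total counts.

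**Figure D2:**
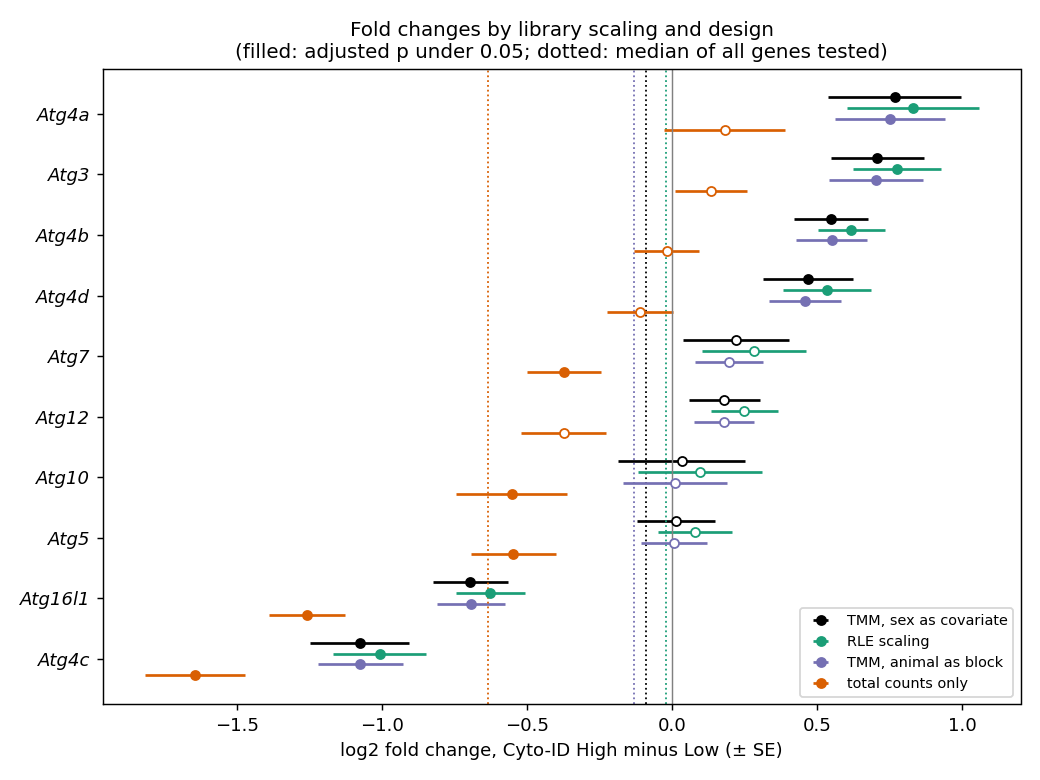
Log2 fold change, Cyto-ID High minus Low, with its SE (x axis) for the 10 conjugation genes under 4 fits, filled where the adjusted p is under 0.05. Dotted lines give the median of all genes tested, −0.09 with TMM and −0.64 with total counts. Every gene shifts down with total counts, and Atg16l1 and Atg4c are below 0 in each fit.

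A change of scaling shifts all genes by nearly the same amount. Relative to the median of all genes under the same scaling, the members therefore moved little by construction, and the values below are a description. Atg4b was 0.62 above that median with total counts and 0.64 above it with RLE size factors, and Atg3 was 0.77 and 0.80 above it. Atg4c was at −1.01 and −0.99, and Atg16l1 at −0.62 and −0.61.

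Ratios of 2 genes within a library do not depend on the scaling, and 7 such ratios were compared by an exact two-sided permutation test over the 8 libraries, whose smallest possible p is 0.0286. That test treats the 8 libraries as independent, although each animal gave 2 of them. The Atg4c to Atg4b ratio was 3.07-fold lower in High, going from −1.93 ± 0.12 to −3.55 ± 0.12 on the log2 scale (SD, n = 4 each, exact permutation p 0.0286, adjusted p 0.0667 over the 7 ratios). The Atg16l1 to Atg5 ratio was 1.62-fold lower, from −0.14 ± 0.16 to −0.84 ± 0.22, and the Atg10 to Atg3 ratio was also 1.62-fold lower, from −3.49 ± 0.21 to −4.19 ± 0.14, each with the same exact permutation p and adjusted p. The fractions did not overlap for these 3 ratios, with 4 of 4 animals lower. None passed after adjustment, but 3 of 7 ratios at the smallest possible p cannot pass, so that outcome was set by the design. A paired form, which flips the sign of each animal's difference, gave each of the 3 a sign-flip p of 0.125 (adjusted p 0.175), the smallest it can give. The other 4 ratios overlapped. Their High minus Low differences were −0.51 for Atg7 to Atg3, 0.17 for Atg12 to Atg5, 0.20 for Atg4a to Atg4b and −0.09 for Atg4d to Atg4b, with adjusted p of 0.15, 0.16, 0.333 and 0.486 (exact permutation tests). With 1 library left out the Atg4a to Atg4b difference ran from 0.11, without the High library of Female2, to 0.30, without that of Male1. The Atg4d to Atg4b difference then ran from −0.18, without the Low library of Male1, to −0.03, without that of Female2.

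Among the Atg4 transcripts, counted per kilobase of merged exons, Atg4c made up 19.2% to 23.9% in the 4 Low libraries and 7.34% to 9.14% in the 4 High libraries. Its mean share went from 21.4% ± 2.0 to 8.28% ± 0.84 (SD, n = 4 each). The share of Atg4b went from 33.1% ± 2.3 to 39.3% ± 1.9, that of Atg4d from 38.6% ± 3.0 to 43.0% ± 2.4 and that of Atg4a from 6.87% ± 0.80 to 9.42% ± 1.36. With the length of the longest transcript in place of merged exons, Atg4b took the largest share, 45.6% in Low and 51.7% in High, and Atg4c went from 15.8% to 5.80%. With Atg4a-ps added to Atg4a, the Atg4c share went from 19.6% to 7.23%. The shares are a description and sum to a fixed total, so that a lower share of Atg4c raises the rest.

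**Figure D3:**
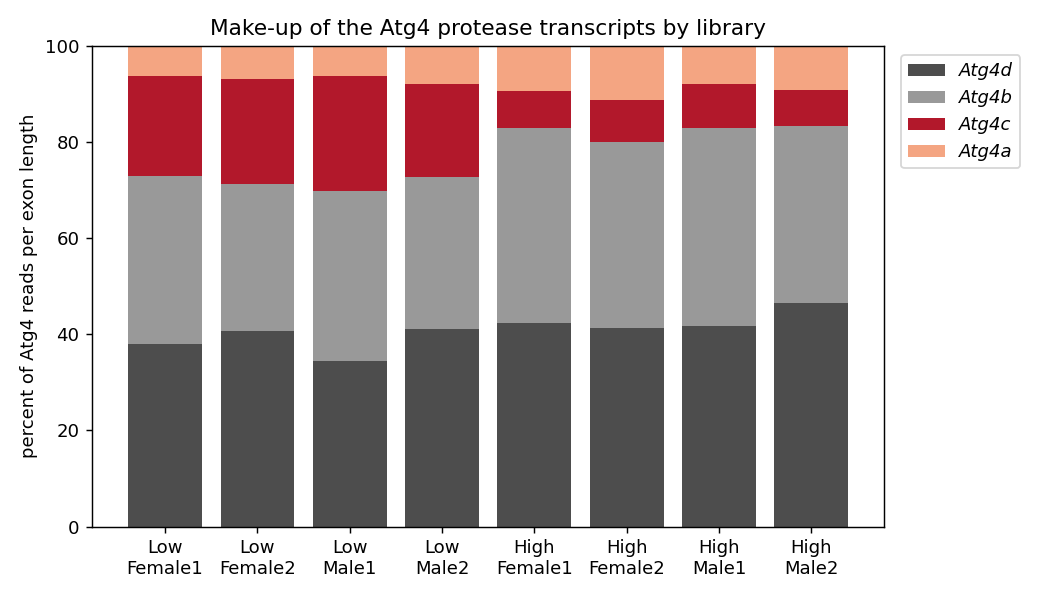
Share of each Atg4 gene in the summed Atg4 reads per exon length (y axis, percent) in the 8 libraries. The Atg4c segment is 19.2% to 23.9% in the Low and 7.34% to 9.14% in the High libraries.

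Levels were ordered by CPM per kilobase of merged exons, in which a gene with long alternative exons is understated. In Low, Atg3 was highest at 16.7 ± 2.4 (SD, n = 4), followed by Atg5 at 12.5 ± 0.4, and neither overlapped the next gene. Atg12 (5.43 ± 0.39), Atg7 (5.20 ± 0.68), Atg4d (5.02 ± 0.27) and Atg4b (4.32 ± 0.40) came next, each overlapping its neighbour. Atg4c (2.80 ± 0.35) and Atg16l1 (2.78 ± 0.27) overlapped, as did Atg16l1 and Atg10 (2.51 to 3.04), and Atg4a was lowest at 0.895 ± 0.089. In High, Atg3 (27.2 ± 4.0) and Atg5 (12.7 ± 1.9) again led. Atg4d followed with a range of 6.03 to 9.22, then Atg4b, Atg12 and Atg7 at 6.34 ± 0.69, 6.15 ± 0.47 and 6.08 ± 1.68, each overlapping the next. Atg10 (2.77 ± 0.67) lay above Atg16l1 (1.72 ± 0.09), Atg4a (1.53 ± 0.31) and Atg4c (1.33 ± 0.15), of which Atg4a overlapped both of the others while Atg16l1 and Atg4c did not overlap. Atg4c thus went from place 7 to place 10, and from 8 to 10 with the length of the longest transcript. That length changed the order of other genes. By it Atg16l1 was at place 6 in Low and 7 in High, above Atg10 in High (means of 4.41 and 3.00). Atg4d was at place 7 in Low and 6 in High, in place of 5 and 3.

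The members' values were also set against sex. In an interaction model, 0 of 17344 genes (0%) had a High minus Low difference that depended on sex (edgeR, adjusted p under 0.05), while 19 had an unadjusted p under 0.05, or 38 when the animal was a block, where chance alone would give about 867. With 2 animals per sex the test thus called far fewer genes than chance, and its 0 calls among the 10 members do not show that they were alike in the sexes. The male minus female values of their High minus Low differences ran from −0.31 to 0.34 with SEs of 0.27 to 0.50. On counts summed per animal, 0.0203% of 19687 genes differed between 2 male and 2 female animals, and 0 of the 10 members, with 284 genes at an unadjusted p under 0.05 where chance would give about 984. The X-linked Atg4a had a male minus female log2 difference of 0.01 (edgeR adjusted p 1.00, SE 0.30).

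The Atg8 proteins that this machinery conjugates were on a list of 5 genes, of which 3 rose, 1 fell and 1 did not pass, where 23.4% of all genes rose and 25.3% fell. The median log2 fold change was 0.62, beside −0.09 over all genes. With total counts 1 was higher and 2 lower, where 12.6% of all genes were higher and 49.1% lower. Gabarap (0.95, SE 0.16, edgeR adjusted p 0.000824) and Gabarapl2 (0.73, SE 0.14, edgeR adjusted p 0.00203) rose, as did Map1lc3a (0.62, SE 0.16, edgeR adjusted p 0.00932), but with total counts Gabarap alone passed (0.37, adjusted p 0.0191), while Gabarapl2 was at 0.17 (adjusted p 0.333) and Map1lc3a at 0.05 (adjusted p 0.743). Gabarapl1 fell (−0.44, SE 0.16, edgeR adjusted p 0.0409), a call lost with RLE scaling (−0.37, adjusted p 0.0757) and kept with the animal as a replicate block (−0.45, adjusted p 0.0117) and with total counts (−1.01, adjusted p 0.000418). Map1lc3b, which encodes LC3B, was at −0.32 (edgeR adjusted p 0.127, SE 0.16). It passed as lower with the animal as a replicate block (−0.33, adjusted p 0.0316) and with total counts (−0.91, adjusted p 0.000238).

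Proteins that bind the Atg12-Atg5-Atg16l1 complex or act just before it formed a list of 6 genes, with 2 higher, 2 lower and 2 not passing, where 48.7% of all genes passed, and a median of −0.06, beside −0.09 over all genes. Tecpr1, which binds Atg12-Atg5 at the lysosome, went from 24.5 ± 2.2 to 11.9 ± 1.4 CPM (SD, n = 4 each), which is a difference on the log2 scale of −1.04 (edgeR adjusted p 0.000274, SE 0.14). Atg16l2, the paralogue of Atg16l1, went from 6.30 ± 2.52 to 1.90 ± 0.74 CPM, or by −1.72 (edgeR adjusted p 0.00472, SE 0.39). These 2 genes were lower in 4 of 4 animals. Relative to the median of all genes, a measure that scaling hardly moves by construction, Tecpr1 was at −0.95 with TMM and −0.98 with total counts. Atg16l2 was at −1.63 and −1.62.

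Rubcn, the Rubicon protein that regulates the class III lipid kinase, went from 32.1 ± 2.0 to 50.9 ± 8.4 CPM (SD, n = 4 each), or by 0.66 (edgeR adjusted p 0.00386, SE 0.14). Wipi2, which brings Atg16l1 to the membrane, went from 50.5 ± 4.9 to 65.9 ± 6.3 CPM, or by 0.38 (edgeR adjusted p 0.0335, SE 0.13). With total counts Rubcn was at 0.08 and Wipi2 turned to −0.18, and neither passed. Rb1cc1 (0.02, SE 0.12) and Rab33b (−0.15, SE 0.21), both of which encode proteins that bind Atg16l1, had edgeR adjusted p of 0.928 and 0.615. With total counts both passed as lower, at −0.54 (adjusted p 0.00789) and −0.73 (adjusted p 0.00655), so that the list then had 0 higher and 4 lower, beside 12.6% and 49.1% of all genes.

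Enzymes of the other ubiquitin-like systems (UFM1, NEDD8, SUMO, URM1, ISG15) formed a list of 28 genes, of which 8 rose, 2 fell and 18 did not pass, where 23.4% of all genes rose and 25.3% fell, with a median of 0.10, beside −0.09 over all genes. With total counts 3 were higher and 14 lower, where 12.6% of all genes were higher and 49.1% lower. The E2 enzymes Ufc1 of UFM1 (0.76, SE 0.11, edgeR adjusted p 0.000402) and Ube2f of NEDD8 (0.61, edgeR adjusted p 0.00273, SE 0.13) rose, and Ube2m of NEDD8 rose from 76.4 ± 5.6 to 153.7 ± 30.0 CPM (edgeR adjusted p 0.000698). The UFM1 protease Ufsp1 (2.14, SE 0.28, edgeR adjusted p 0.000181), the modifier Isg15 (1.69, SE 0.19, edgeR adjusted p 7.17e-05) and the SUMO protease Senp1 (0.86, SE 0.16, edgeR adjusted p 0.00142) rose. Ufsp1 and Isg15 had few counts in the Low libraries, 29 to 47 and 45 to 97 per library. Uba7, the E1 of ISG15, fell (−0.78, SE 0.29, edgeR adjusted p 0.0482), and it lost its call with RLE scaling (adjusted p 0.0728). Of the 6 genes named here as higher, Ufsp1, Isg15 and Ube2m passed with total counts (1.55, 1.12 and 0.42), while Ufc1 (0.20, adjusted p 0.139), Senp1 (0.28, adjusted p 0.0755) and Ube2f (0.05, adjusted p 0.727) did not.

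**Figure D4:**
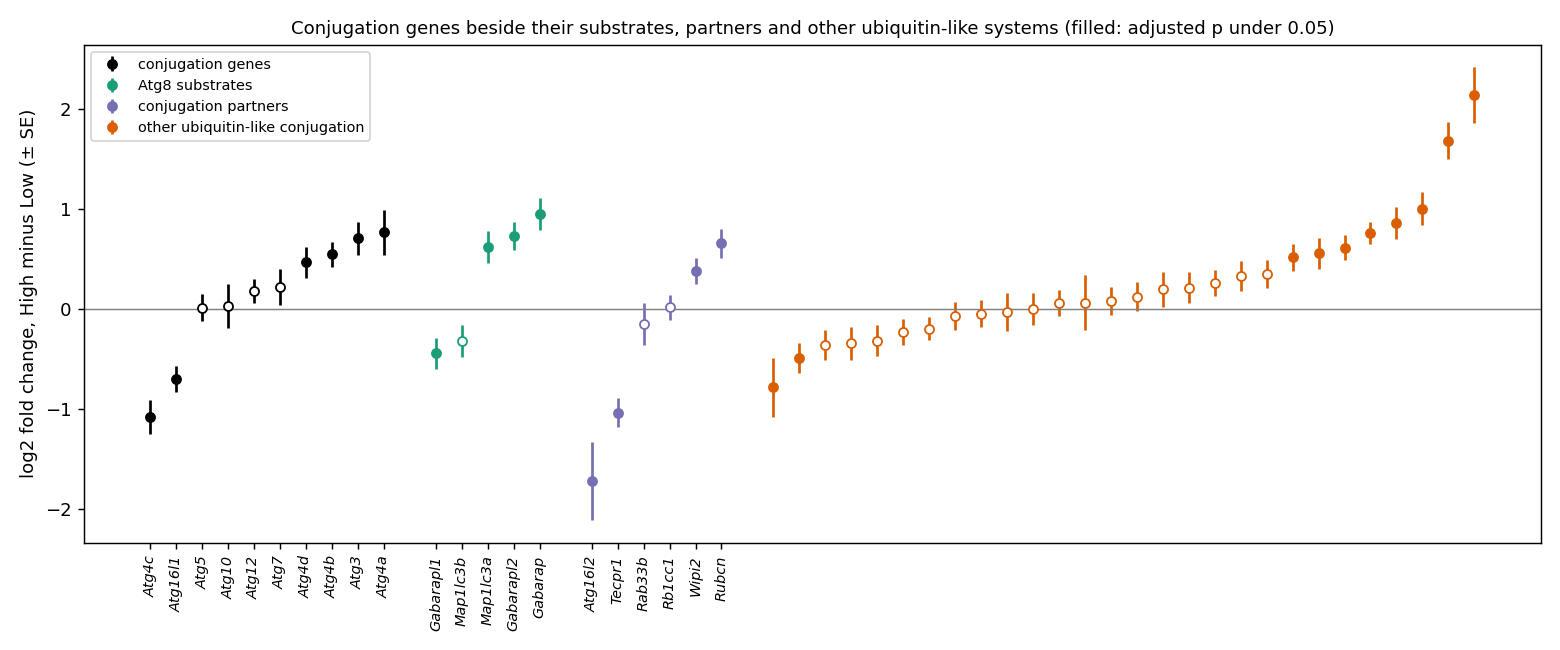
Log2 fold change, High minus Low, with its SE (y axis) for the 10 conjugation genes, the 5 Atg8 genes, 6 partners and 28 genes of other ubiquitin-like systems (not named on the axis), from the fit with TMM scaling, filled where the adjusted p is under 0.05. Each group holds genes on both sides of 0. With total counts 0 conjugation genes are higher and 5 lower past the threshold, beside 12.6% and 49.1% of all genes.

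The genes whose pattern was most like that of a member were found by Pearson's r of log2 CPM over the 8 libraries, among 10005 genes with a mean of at least 5 CPM, for the member of smallest adjusted p in each direction. Those near Atg3 included Cldnd1, Arpc5, Insl6 and Arpc4, with r of 0.989 to 0.996. Those near Atg4c included Uimc1, Vrk2, Upf3b and Depp1, with r of 0.992 to 0.996. The points share the 2 fractions and the library scaling, so such values are a description.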

How the data were processed

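The deposited table holds raw read counts by gene symbol, a unit read from its whole numbers and unequal totals. STAR 2.7.3, DESeq2 and build GRCm38 are named in the submitters' processing notes. The counting tool, annotation, strandedness and filters are not given in the sources used here, so reads shared by overlapping genes or copies may have been split or dropped. Spreads cover the 4 animals and counting error.

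The fits used edgeR 4.0.16 in R 4.3.3 (filterByExpr by fraction, TMM, then glmQLFit and glmQLFTest on a model of sex and fraction), with Benjamini-Hochberg adjustment over all genes. Each SE is the log2 fold change over the square root of F. Libraries of an animal name were taken as pairs, since the labels' protocol sorts a cell suspension into both fractions. Deviations from the fraction means correlated by 0.43, 0.32, −0.02 and 0.28 across genes in Female1, Female2, Male1 and Male2. The High library of Male1 correlated best with the Low library of Female1 (0.35), which goes against the pairing for that animal. Alternatives were RLE or total-count scaling, no filter, a minimum of 10 counts per library, DESeq2 1.42.0, robust dispersion, voom in limma 3.58.1, a model without sex, a replicate block by animal (also with a loess correction for GC content and length, span 0.3) and each library left out. Ratios used counts plus 0.5. Positions, lengths and overlaps are from GENCODE release M21 (GRCm38), and the Atg4a copy was aligned with Biopython 1.88.

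The members, lists and tests were chosen with earlier results of these data known. Genes named are the 10 members, the genes of other lists past the threshold (up to 6 per list and direction) and the 5 nearest in pattern, of which some are not reported here; Rb1cc1, Rab33b, Kri1 and Atg4a-ps were added after their values were seen. Besides the 2 layer lists, 5 marker lists were measured. Of the 6 leukocyte markers 4 passed the filter, and of the 6 gastric markers 0 did. Of those 4 leukocyte and the 6 fibroblast, 5 endothelial and 6 muscle markers 1, 1, 0 and 1 fell and 0 rose.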

Additional observations from a re-analysis of the deposited data

Results flagged for a closer look

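In each fraction the 4 libraries of each member, 20 groups in all, were examined with Dixon's test for a library far from the rest, a test that picks out about 1 group in 20 by chance. It singled out 2. Atg3 in the Low library of Female2, at 41.3 CPM, lay below the others, whose nearest was 54.9 CPM, and Atg4d in the High library of Male2, at 67.0 CPM, lay above the others, whose nearest was 46.8 CPM. Female2 also carried the gastric markers and the High library of Male2 the fewest detected genes, and the part of either in these values was not tested.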

How the results depend on the processing

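Scaling by total counts changed the members most. It gave −0.37 for Atg7, −0.55 for Atg10, −0.37 for Atg12, −0.55 for Atg5, −0.019 for Atg4b and −0.11 for Atg4d, and it raised the called genes of the other ubiquitin-like systems from 10 to 17. It called 10708 genes in place of 8440, of which 20.5% were higher in place of 48.0%. The genes nearest to no difference also changed sign elsewhere: Atg10 was at −0.0069 without a filter and at −0.0087 with limma-voom, and Atg5 at −0.029 without a filter and at −0.0039 with at least 10 counts in every library. With 1 library left out Atg10 ran from −0.15 to 0.15 and Atg5 from −0.085 to 0.074. Without a filter on low counts Atg4a (adjusted p 0.0660) and Atg4d (adjusted p 0.0776) did not pass. With 1 library left out 4 to 6 members were called, while the calls over all genes also went down, from 8440 to between 7269 and 8106. With the animal as a replicate block 6 members were called, 4 higher and 2 lower, and 9336 genes in all; it changed no member's call, and of the Atg8 genes it added Map1lc3b. The paired form of the ratio test cannot go below 0.125. Low counts limit Atg4a, Atg10 and Atg4c.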

Other observations

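In the annotation used here 3 members face a gene on the other strand whose start lies within 1 kb of their own. Ap3s1, a subunit of the AP-3 adaptor that sorts cargo to lysosomes, starts 296 bases from Atg12 and rose from 6.74 ± 0.83 to 16.3 ± 3.6 CPM (SD, n = 4 each), which is a difference on the log2 scale of 1.27 (edgeR adjusted p 0.000384, SE 0.19), in 4 of 4 animals, beside 0.18 for Atg12. Slc35a5 starts 79 bases from Atg3 and was at 0.06 (edgeR adjusted p 0.873, SE 0.23), beside 0.71 for Atg3. Psmd10 starts 179 bases from Atg4a and was at 0.23 (edgeR adjusted p 0.237, SE 0.15), beside 0.77 for Atg4a. The differences within these pairs were not tested.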
